A study of Mus musculus with 6 samples.

Results

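The interferon-gamma-induced GTPases were examined in RNA-seq data from liver endothelial cells (ECs) of young and aged mice. Members were chosen by name from 2 protein families, namely 6 guanylate-binding proteins (Gbp2, Gbp3, Gbp4, Gbp5, Gbp6 and Gbp7) and 4 immunity-related GTPases (Igtp, Irgm1, Irgm2 and Iigp1). All 10 were found among the 24421 gene symbols of the count table, and all 10 were among the 14612 genes with enough counts to be tested. ECs had been sorted from the liver of wild-type C57BL/6J female mice as cells with CD31, an endothelial surface protein, and without CD45, the pan-leukocyte protein. 3 mice were 10 weeks old, and the 3 aged mice were 127, 131 and 136 weeks old and are named here by those weeks. No mouse was treated, and the methods describe the samples of each age as independent. The comparison asks how the expression of these genes in liver ECs differs with age.

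Interferon-gamma, a cytokine made mainly by T cells and natural killer cells, binds a receptor on most cell types and activates the kinases JAK1 and JAK2. The signal reaches target genes through gamma-activated sites (GAS) and through the induced transcription factor IRF1, which binds interferon-stimulated response elements (ISREs). Guanylate-binding proteins and immunity-related GTPases are among the most strongly induced products of this pathway. The former attach to membranes of bacteria and parasite vacuoles in infected cells, and the latter include effectors such as Iigp1 (Irga6) and the regulators Irgm1, Irgm2 and Igtp (Irgm3), which hold the effectors off the membranes of the cell itself.

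Both elements were searched for in the promoters. The RefSeq sequences of mouse assembly GRCm38.p6 held a promoter for 7 of the 10 members (Gbp2, Gbp3, Gbp5, Gbp7, Igtp, Irgm1 and Irgm2), and the 250 bases before each transcription start were searched on both strands. The ISRE core GAAANNGAAA was present in 7 of the 8 promoters listed for these 7 genes (87.5%), at least 1 for each gene, against 2.98% of all 32851 promoters searched in the same way. The GAS letters TTCNNNGAA were present in 4 of the 8 promoters, those of 4 genes, against 7.02% of all promoters. Matches of the 2 motifs may overlap, and each motif was counted separately. Among constitutive relatives of the dynamin family, which do not depend on interferon, 0 of 10 genes with a promoter held either motif. Counted by gene, 3.46% of all genes held the ISRE core and 8.13% the GAS letters. The ISRE core was present in 4 of 7 related interferon-inducible GTPases, in 9 of 19 type I interferon targets, in 3 of 15 signalling genes, in 0 of 16 genes of the loading machinery and effector partners, and in 1 of 15 other interferon-gamma targets. The GAS letters were present in 3 of 7, 3 of 19, 5 of 15, 2 of 16 and 1 of 15 genes of the same lists. These matches are letters in a window and say nothing of binding in these cells. The stretches below are shown because they carry the motif that the members share. Each runs 5′ to 3′ in the direction of transcription, and capitals mark the ISRE core on either strand.
Gbp2, chr3:142620584-142620653, plus strand: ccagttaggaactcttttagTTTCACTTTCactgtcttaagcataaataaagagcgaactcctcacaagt
Gbp3, chr3:142559979-142560043, plus strand: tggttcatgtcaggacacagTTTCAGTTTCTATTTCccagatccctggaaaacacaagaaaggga
Gbp5, chr3:142496749-142496818, plus strand: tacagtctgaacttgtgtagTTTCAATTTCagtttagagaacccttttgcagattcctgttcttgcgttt
Gbp7, chr3:142530263-142530332, plus strand: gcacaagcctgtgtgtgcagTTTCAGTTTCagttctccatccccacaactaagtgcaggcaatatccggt
Igtp, chr11:58199502-58199555, plus strand: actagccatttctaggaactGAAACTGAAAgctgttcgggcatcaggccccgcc
Irgm1, chr11:48871421-48871470, minus strand: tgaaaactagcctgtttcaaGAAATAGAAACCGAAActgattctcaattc
Irgm2, chr11:58214893-58214962, plus strand: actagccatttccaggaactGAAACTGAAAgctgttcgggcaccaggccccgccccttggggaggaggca

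In 6 of the 7 promoters that held it, the core began between 30 and 64 bases before the transcription start, and in Gbp5 it began 165 bases before it. Irgm1 and Gbp3 each held 2 overlapping cores. The windows of Igtp and Irgm2, which are neighbours on the chromosome, were identical at 52 of the 54 bases compared, while the expression of these 2 genes is described separately below. Irgm1, whose expression differed most from that of the other members, shared the ISRE core with them. It held no GAS letters in the 250 bases, nor did Gbp2 and Gbp3.

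All members were expressed in liver ECs of both ages, at levels spread over more than 1 order of magnitude. Levels of different genes are compared here in FPKM, the deposited values scaled to transcript length and to sequencing depth. In young ECs Iigp1 was the highest at 182 ± 59.3 FPKM and Irgm1 followed at 168 ± 37.9 FPKM (SD, n = 3). Igtp reached 78.3 ± 32, Gbp2 77.0 ± 21.6 and Irgm2 61.3 ± 6.60 FPKM. The remaining GBPs were lower, from 42.1 ± 16.7 FPKM for Gbp4 through 35.0 ± 16.9 for Gbp3, 27.6 ± 14.5 for Gbp7 and 9.87 ± 4.03 for Gbp6 to 6.94 ± 1.44 for Gbp5. Thus the mean of Iigp1 lay above 97.9% of all 24346 symbols with an FPKM and that of Gbp5 above 70.3%.

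Neighbours in this order often could not be separated. Iigp1 exceeded Irgm1 in 2 of 3 young samples, and Igtp exceeded Gbp2 in 2 of 3. The other 7 neighbouring pairs kept their order in 3 of 3 young samples, although in 4 of them the means differed by less than the larger SD. In aged ECs Irgm1 was first at 356 ± 143 FPKM and Iigp1 second at 330.5 ± 151 FPKM (SD, n = 3), with Irgm1 above Iigp1 in 2 of 3 samples. Gbp3 and Gbp4 also stood the other way round by their means, at 48.5 ± 29.1 and 46.5 ± 27.9 FPKM, but Gbp3 was above Gbp4 in only 1 of 3 aged samples. Gbp6 and Gbp5 were again last, at 18.7 ± 12.5 and 8.39 ± 3.97 FPKM. Summed over the 10 members, the level was 551, 583 and 931 FPKM in young samples 1, 2 and 3 and 1139, 658 and 1522 FPKM in the 127-, 131- and 136-week samples. The 131-week sum thus lay within the range of the young samples, and the other 2 aged sums lay above it.

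**Figure D1:**
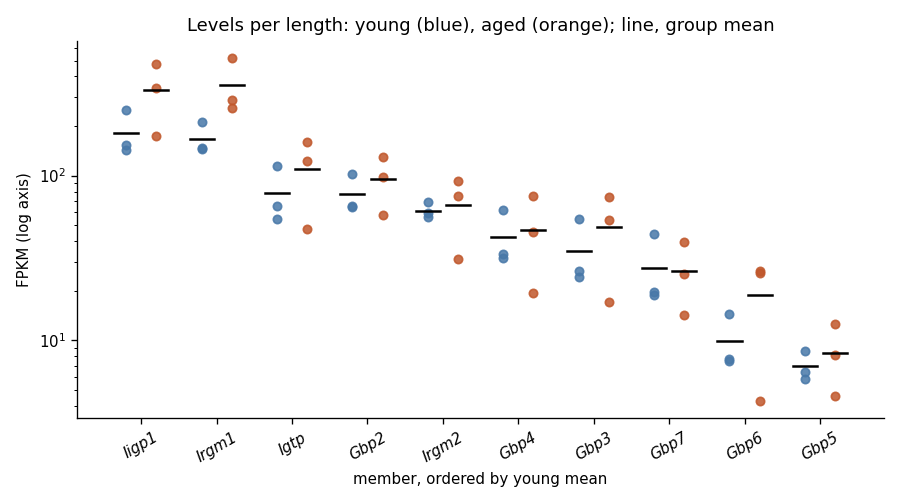
FPKM of each member on a log axis, ordered by the young mean, with 1 point for each of the 3 young (blue) and 3 aged (orange) samples and a line at each group mean. Iigp1 and Irgm1 lie at the top with young means of 182 and 168 FPKM, Gbp6 and Gbp5 at the bottom, and the lowest aged point lies under the 3 young points for 8 members.

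Levels of a single gene across samples are given as CPM, read counts scaled to a common library size with TMM factors, the values on which the test of age was made. Samples had between 23001556 and 31651817 counts in all, and the scaling factors lay between 0.964 and 1.11. Libraries fell into 2 clusters by the percentage of reads counted for Lars2 and Rn45s, symbols that collect ribosomal RNA reads. The share was 1.29% in young sample 3 and 0.960% in the 127-week sample, and 4.68% to 5.53% in the other 4. Each cluster held both ages, and differences within clusters are given below. In bulk samples, fewer cells that express a gene and less RNA of it per cell cannot be told apart.

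Among the guanylate-binding proteins, none of the 6 separated the ages. Gbp2, which coats the vacuoles of intracellular pathogens, stood at 144, 147 and 222 CPM in young samples 1, 2 and 3 and at 217, 130.0 and 293 CPM in the 127-, 131- and 136-week samples. Only the 136-week sample lay above the young range, and the 131-week sample lay below it. The mean was 171 ± 44.2 CPM in young and 213 ± 81.5 CPM in aged ECs (SD, n = 3 each). The log2 fold change was 0.32 ± 0.31 (SE; edgeR quasi-likelihood test, adjusted p = 0.716).

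Gbp3, its neighbour on the chromosome, measured 61.7, 66.8 and 137 CPM in the young samples and 138, 43.7 and 189 CPM in the aged samples of 127, 131 and 136 weeks. The 127-week value barely exceeded that of young sample 3, and the 131-week value was the lowest of the 6. For Gbp5, a GBP linked to inflammasome activation, the values were 17.6, 19.3 and 25.8 CPM in young and 25.9, 13.7 and 37.4 CPM in aged ECs, in the same order. Again the 127-week sample was level with young sample 3 and the 131-week sample was last. Their log2 fold changes were 0.48 ± 0.53 and 0.29 ± 0.35 (SE, edgeR adjusted p = 0.752 and 0.780).

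Gbp7 was the only member with a negative estimate. It stood at 105, 111 and 244 CPM in young samples 1, 2 and 3 and at 141, 80.1 and 223 CPM at 127, 131 and 136 weeks. Here young sample 3 was the highest of all 6 samples, and no aged sample exceeded it. The log2 fold change was -0.05 ± 0.44 (SE, edgeR adjusted p = 0.978), and its sign turned under 6 alternatives, among them counts without scaling factors (0.001) and the removal of young sample 3 (0.46).

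A second pair of GBPs behaved somewhat differently in the 127-week sample. Gbp4 measured 141, 149 and 273 CPM in the young samples and 342, 86.4 and 203 CPM in those of 127, 131 and 136 weeks. Gbp6, the member with the widest range, measured 32.3, 33.3 and 62.4 CPM in young and 116, 18.6 and 109.8 CPM in aged samples. Both were highest at 127 weeks and lowest at 131 weeks, but at 136 weeks Gbp6 lay above all young samples while Gbp4 lay within their range. The highest Gbp6 value was 6.26 times the lowest. The log2 fold change was 0.16 ± 0.48 for Gbp4 and 0.93 ± 0.61 for Gbp6 (SE, edgeR adjusted p = 0.930 and 0.560). Of the 75-base stretches of Gbp6 transcripts, 71.38% also occur in other genes, chiefly Gbp10, so reads of these genes may have been split between them and the Gbp6 values are uncertain. For the other 9 members the shared part was at most 5.70%.

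**Figure D2:**
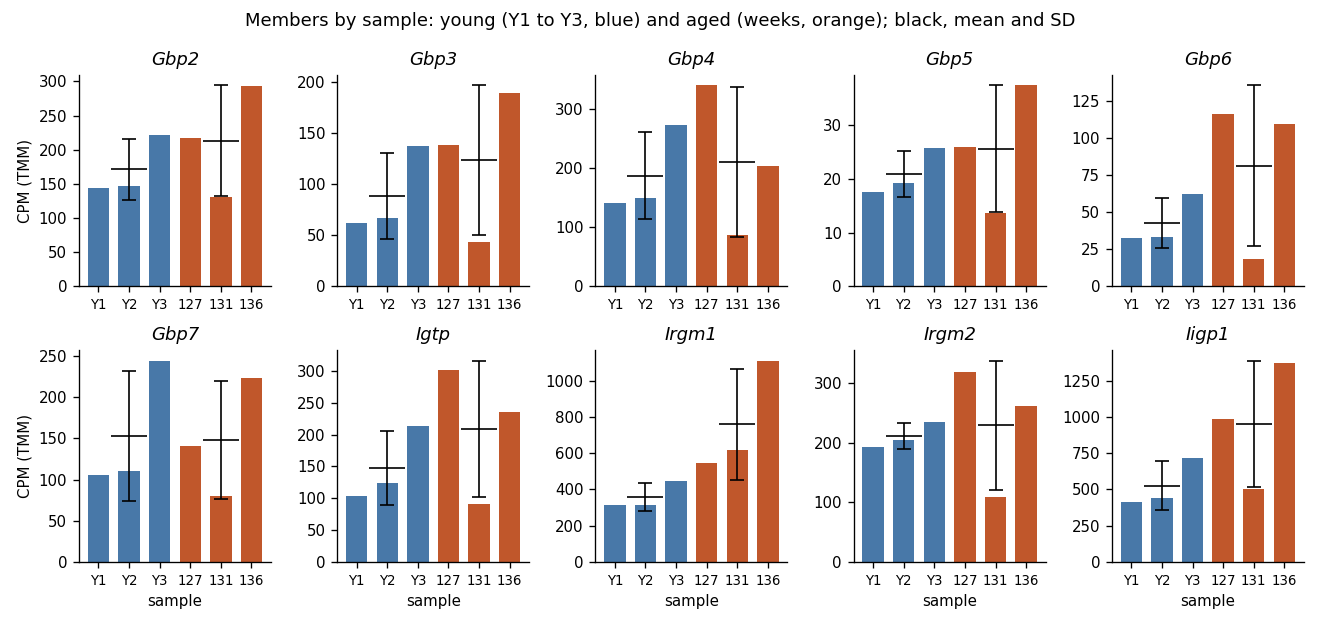
CPM of each member in young samples 1 to 3 (Y1 to Y3, blue bars) and in the aged samples by age in weeks (orange bars), with a black line at each group mean and a whisker for the SD (n = 3). The 131-week bar is the lowest for all members except Irgm1 and Iigp1, and Y3 stands above Y1 and Y2 in every panel.

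Of the immunity-related GTPases, Irgm1 was set apart from the other 9 members. This regulator, which guards the membranes of the cell and is required for control of intracellular bacteria, stood at 314, 311 and 445 CPM in the young samples and at 548, 617 and 1110.1 CPM at 127, 131 and 136 weeks. All 3 aged samples lay above all 3 young samples, and the 131-week sample exceeded the 127-week one. The mean was 357 ± 76.7 CPM in young and 758 ± 307 CPM in aged ECs (SD, n = 3 each), so the ratio was 2.12. The log2 fold change was 1.09 ± 0.30 (SE) with an unadjusted p of 0.00802, which did not pass adjustment over all genes (edgeR, adjusted p = 0.229). With DESeq2 the adjusted p was 0.0235, and over all alternatives run it lay between 0.0235 and 0.756. Without the 136-week sample the log2 fold change was 0.71. That Irgm1 separated the ages was known when the members were chosen.

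Irgm2, a second regulator, did not share this pattern. Its values were 194, 206 and 235 CPM in young samples 1, 2 and 3 and 319, 108 and 261 CPM at 127, 131 and 136 weeks. The young samples were close together, 2 aged samples lay above them and the 131-week sample lay well below them, at 0.512 times the young mean. The log2 fold change was 0.12 ± 0.35 (SE, edgeR adjusted p = 0.931). As a level per length, Irgm1 was 2.62, 2.45 and 3.08 times Irgm2 in the young samples and 2.78, 9.33 and 6.90 times Irgm2 at 127, 131 and 136 weeks. This FPKM ratio at 127 weeks lay inside the young range, so the ages overlapped in it.

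Igtp, the third IRGM-type regulator, measured 104, 124 and 214 CPM in the young samples and 301, 91.7 and 235 CPM at 127, 131 and 136 weeks. It was highest at 127 weeks and lowest at 131 weeks, as was Irgm2. Its log2 fold change was 0.51 ± 0.44 (SE, edgeR adjusted p = 0.683).

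Iigp1, an effector that disrupts the vacuoles of parasites, stood between these patterns. The young samples had 413, 444 and 719 CPM and the aged ones 986, 502 and 1372 CPM at 127, 131 and 136 weeks. Both the 127- and 136-week samples exceeded every young sample, and the 131-week sample lay inside the young range at 0.955 times its mean. The mean was 525 ± 169 CPM in young and 953 ± 436 CPM in aged ECs (SD, n = 3 each), and the log2 fold change 0.86 ± 0.39 (SE) with an unadjusted p of 0.0583 (edgeR, adjusted p = 0.385).

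Counted over the 10 members, 0 were called by edgeR, which asked for an adjusted p under 0.05 with a log2 fold change beyond 1, nor was any gene of the 14612 (0.0%). Irgm1 was the 1 member with an unadjusted p below 0.05 toward higher expression in aged ECs, against 9.03% of all genes tested. DESeq2 called 1 member, Irgm1, as higher in aged ECs, against 2.77% of the genes to which it gave an adjusted p. 1 of 10 members had all aged samples above all young samples, against 9.62% of all genes. Apart from the DESeq2 call, which rests on 1 gene, these shares are near the background and no result about the group. The log2 fold change was above 0 for 9 of 10 members, against 51.0% of all genes. Its median over the members was 0.40, with a range from -0.05 to 1.09, beside a median of 0.01 over all genes tested. The median was 0.30 for the GBPs and 0.68 for the immunity-related GTPases.

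For 9 of 10 members, all except Irgm1, the SD among the aged mice in CPM was larger than the difference between the group means. How many of all genes met this was not counted, so the count is no result about the group. The 131-week sample was the lowest of the 6 for 8 of 10 members (all except Irgm1 and Iigp1), against 12.7% of all genes. In contrast, the 127- and 136-week samples both lay above all young samples for 7 of 10 members, namely Gbp3, Gbp5, Gbp6, Igtp, Irgm1, Irgm2 and Iigp1, against 18.5% of all genes. For Gbp3 and Gbp5 this held in CPM only, since in FPKM the 127-week sample, at 53.9 and 8.12, lay just under young sample 3, at 54.5 and 8.56. The highest value of the 6 came from the 136-week sample in 5 members (25.7% of all genes) and from the 127-week sample in 4 (15.0% of all genes). Relative to the young mean, the median member stood at 0.69, -0.71 and 0.81 at 127, 131 and 136 weeks on the scale of log2(CPM + 1), while the median over all genes lay between -0.01 and 0.02. The smallest two-sided p that an exact permutation test of 3 mice against 3 can give for a single value is 0.1.

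Without the 131-week sample, 5 of 10 members had an unadjusted p below 0.05 toward higher expression in aged ECs (Gbp6, Igtp, Irgm1, Irgm2 and Iigp1), against 11.6% of all genes tested, and 0 were called in edgeR. In this fit 121 of 14558 genes were called (0.831%), 78 of them higher in aged ECs. The median log2 fold change of the members was then 0.73. Gbp6 had the smallest adjusted p of the members in this fit, 0.0879 at a log2 fold change of 1.40. When the 131-week sample alone was set against the young samples, the log2 fold change was negative for 9 of 10 members, with a median of -0.81, and 0.79 for Irgm1. That fit assumes that the lone sample varies like the young ones. The 131-week sample was the lowest for 8 of 10 members, so both fits restate that pattern and do not test it. Leaving out any other mouse gave 1 or 2 members higher at an unadjusted p below 0.05 (5.59% to 8.81% of all genes tested).

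**Figure D3:**
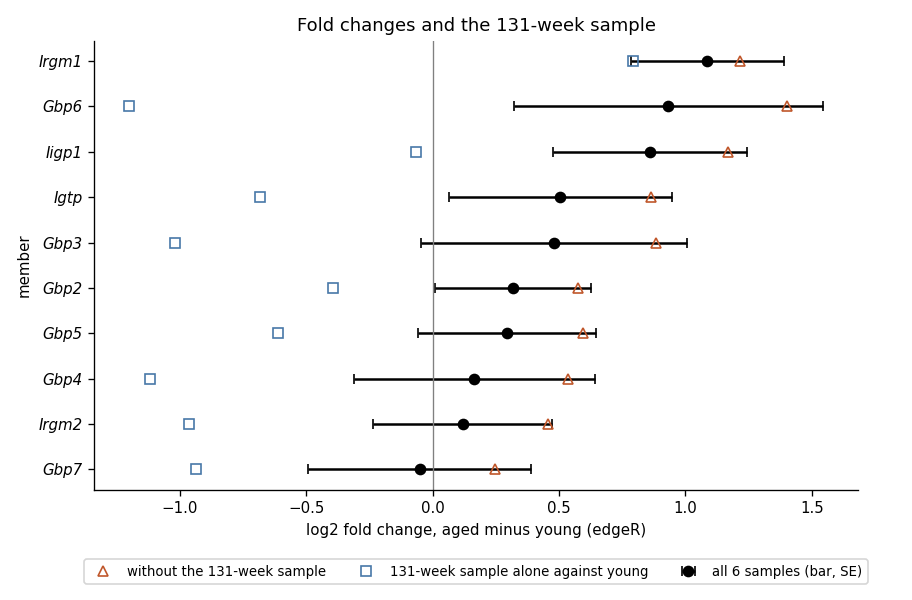
Log2 fold change of each member, aged minus young, fitted by edgeR on all 6 samples (black point, bar for the SE), without the 131-week sample (triangle) and for the 131-week sample alone against the young samples (square). Squares lie left of 0 for 9 members and right of 0 for Irgm1 alone, at 0.79.

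Young mice also differed. Young sample 3 was above young samples 1 and 2 for 10 of 10 members, against 41.1% of all genes. It stood from 1.18 times (Irgm2) to 2.27 times (Gbp7) the mean of the other two in CPM, so that for Gbp3 and Gbp5 it was level with the 127-week sample. These 2 samples also form the library cluster with few Lars2 and Rn45s counts. With the cluster as a term in edgeR, the median log2 fold change of the members was 0.43. In that fit 0 members were called, against 0.0137% of all genes. Irgm1 then stood at 1.08 (edgeR adjusted p = 0.221), and the estimate of Gbp7 turned positive at 0.07. Whether the cluster accounts for the height of young sample 3 was not tested. Within the cluster with few Lars2 and Rn45s counts, the 127-week sample was compared with young sample 3. The log2 difference was 0.90 for Gbp6, 0.49 for Igtp, 0.46 for Iigp1, 0.44 for Irgm2, 0.32 for Gbp4 and 0.30 for Irgm1. It was between -0.03 and 0.01 for Gbp2, Gbp3 and Gbp5 and -0.80 for Gbp7. Within the cluster with many such counts, the mean log2 difference of the 131- and 136-week samples from young samples 1 and 2 was 1.40 for Irgm1, 0.96 for Iigp1 and -0.13 and -0.25 for Gbp4 and Irgm2. The other 6 members lay between 0.30 and 0.50. In all 6, and in Gbp4 and Irgm2, these means join opposite signs. For the 6, the 131-week sample differed from young samples 1 and 2 by -0.82 to -0.16 and the 136-week sample by 1.01 to 1.74. For Gbp4 and Irgm2 the differences were -0.75 and -0.88 at 131 weeks and 0.49 and 0.39 at 136 weeks. These are differences of 1 mouse from 1 mouse and of the mean of 2 mice from that of 2 others, and no test was run within a cluster.

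Upstream of the members, the genes of interferon-gamma signalling were followed from ligand to feedback inhibitors. Ifng itself, the ligand, had 0 counts in every young sample and at 131 weeks, which allows a level of up to 0.130 CPM at 3 counts, and 6 and 16 counts at 127 and 136 weeks. Its receptor chain Ifngr1 lay between 136 and 207 CPM in all 6 samples, and the log2 fold change was 0.04 ± 0.17 (SE, edgeR adjusted p = 0.953). Ifngr2 and Jak1 had estimates of -0.40 and -0.61 with adjusted p of 0.515 and 0.343 in edgeR, and Jak2 one of -0.02.

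Of the transcription factors, Irf1 had the order of the ages seen in Irgm1. It stood at 599, 629 and 1007 CPM in young and at 1882, 1447 and 2935 CPM in aged ECs, with all aged above all young samples. Its log2 fold change was 1.49 ± 0.34 (SE, edgeR adjusted p = 0.198). Socs3, a feedback inhibitor of JAK signalling, likewise had 869, 1026 and 939.8 CPM in young and 1256, 1795 and 2683 CPM in aged ECs (log2 fold change 1.02 ± 0.30, edgeR adjusted p = 0.240). Stat2, which acts downstream of type I interferons, stood at 67.2, 69.2 and 133 CPM in the young samples and at 125, 49.8 and 103 CPM at 127, 131 and 136 weeks. Like 8 of the members it was lowest at 131 weeks, and so was Irf9, its partner. Their log2 fold changes were 0.05 and -0.04. Of the 16 genes of this list that were tested, 2 had an unadjusted p below 0.05 toward higher (Irf1, Socs3) and 1 toward lower (Jak1) expression, 0 passed adjustment in edgeR, and the median log2 fold change was 0.04. DESeq2 called 2 of them, with adjusted p of 0.000897 for Irf1 and 0.0212 for Socs3.

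**Figure D4:**
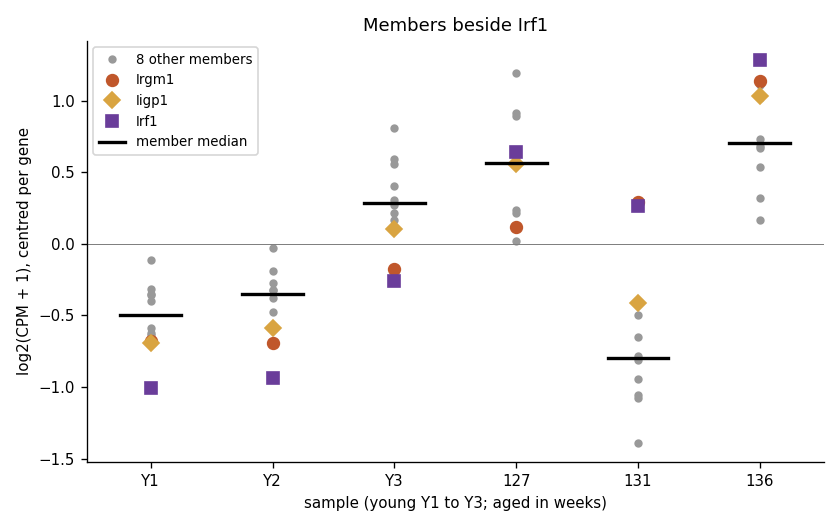
Log2(CPM + 1) of each member, centred on its mean over the 6 samples, with Irgm1, Iigp1 and Irf1 in colour, the other 8 members in grey and the member median as a black bar. At 131 weeks Irgm1 and Irf1 lie above 0, at 0.29 and 0.27, while the member median lies at -0.80.

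Distances between such centred profiles, as the root mean square over the 6 samples, put numbers on these patterns. The distance from Irgm1 to Irf1 was 0.28, and that from Iigp1 to Irf1 was 0.38, whereas the other 8 members lay 0.61 to 0.88 from Irf1. Irgm1 and Irf1 both had all aged above all young samples, as did 9.62% of all genes, so their distance partly restates that order. Genes outside the members lay closer to Irgm1 than Irf1 did, among them Rel at 0.07 and Pla2g7 at 0.15. A particular likeness of Irgm1 to Irf1 was thus not shown. Among pairs of members Gbp2 and Gbp5 were closest at 0.09, and Gbp4 and Irgm1 were farthest apart at 0.84. Igtp was nearest to the median member profile at 0.17 and Irgm1 was farthest from it at 0.57. Stat2 lay 0.24 from that median profile and Irf1 0.63. The 5 genes outside the group whose profile was most like the member median were Adamtsl4 (0.10), Tap1 (0.11), Gm12250 (0.12), Phf11d (0.13) and 2210039B01Rik (0.14). Tap1 encodes a subunit of the peptide transporter of antigen presentation, and Gm12250 (Irgb10) is itself an immunity-related GTPase. These are descriptions over 6 samples that share libraries.

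Other interferon-inducible GTPases were counted in the same way. Of 19 such genes listed among the symbols, 15 were tested, 13 had a positive estimate, 2 (Tgtp1 and Gm8979) had an unadjusted p below 0.05 toward higher expression, and 0 passed adjustment in edgeR, while DESeq2 called 1 (Tgtp1, adjusted p = 0.00585). Their median log2 fold change was 0.75. Tgtp1, also known as Irgb6, was named as a T-cell-specific GTPase, and that name is not a result of these data. It stood at 7.15, 7.72 and 14.3 CPM in young and at 53.0, 12.7 and 62.7 CPM in aged samples of 127, 131 and 136 weeks (log2 fold change 2.13 ± 0.57, edgeR adjusted p = 0.225). Its near-identical copy Tgtp2 stood at 48.5, 44.0 and 109 CPM in young and at 170.5, 39.8 and 135 CPM in aged samples. In both genes the 131-week sample lay inside or below the young range, and the split of reads between the copies is uncertain. Gm8979 rested on 1 to 4 counts in the young and 6, 10 and 30 counts in the aged samples. The highest value of the 6 came from the 127-week sample in 9 of the 15, and the lowest from the 131-week sample in 5.

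Gm12250, one of those genes, measured 42.7, 52.4 and 82.7 CPM in the young samples and 91.1, 32.6 and 120.1 CPM at 127, 131 and 136 weeks, the order seen in Gbp3 and Gbp5. Gbp10, the GBP that shares sequence with Gbp6, measured 2.49, 2.17 and 6.22 CPM in young and 15.9, 2.30 and 8.45 CPM in aged samples. It was thus highest at 127 weeks, like Gbp6. Gbp9 was nearly the same in the young samples, at 180.1, 173 and 170.1 CPM, and measured 235, 134 and 233 CPM in the aged ones, which is the split of Irgm2. By contrast, of 9 constitutive relatives tested (atlastins, dynamins and mitofusins), which remodel membranes without interferon, 4 had positive and 5 negative estimates, 0 had an unadjusted p below 0.05 and the median was -0.07. Their 3 smallest p values toward lower expression were those of Dnm2, Mfn1 and Mfn2, with log2 fold changes of -0.34, -0.36 and -0.19. Dnm3, a dynamin named after its values were seen, had a positive estimate of 0.73 ± 0.34 (unadjusted p = 0.0667 in edgeR), at 11.4, 14.5 and 15.8 CPM in young and 34.5, 21.2 and 13.4 CPM at 127, 131 and 136 weeks.

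Further targets of interferon were compared by the same counts. Of 24 other interferon-gamma targets, 20 had a positive estimate, 5 had an unadjusted p below 0.05 toward higher expression, 0 passed adjustment in edgeR and the median log2 fold change was 0.28. Their 3 smallest p values were those of Serping1, Cxcl10 and Cd274, with log2 fold changes of 1.46, 1.65 and 0.98 and edgeR adjusted p of 0.259, 0.291 and 0.302. DESeq2 called 2 of the 24, Serping1 (adjusted p = 0.0309) and Cxcl10 (adjusted p = 0.0346). Cxcl10, a chemokine for T cells, had 550.4 CPM at 131 weeks, which lay within the young range of 173 to 566 CPM. Serping1 at 72.7 CPM and Cd274 at 32.2 CPM also lay within their young ranges at 131 weeks (47.2 to 80.7 and 23.8 to 36.3 CPM). Of 24 targets of type I interferon, 21 had a positive estimate, 4 had an unadjusted p below 0.05, 0 passed adjustment in edgeR and the median was 0.37. Oas3, Zbp1 and Isg15 had the smallest p, with log2 fold changes of 3.17, 2.21 and 1.37, and DESeq2 called 2 of the 24 (Oas3, adjusted p = 0.0232, and Zbp1, adjusted p = 0.0332). All 3 were highest at 136 weeks. At 127, 131 and 136 weeks Oas3 stood at 1.86, 0.817 and 10.5 CPM (young 0.135 to 0.663). Zbp1 stood at 26.9, 5.48 and 70.9 CPM (young 6.23 to 8.61), and Isg15 at 62.8, 43.1 and 188 CPM (young 32.3 to 44.3). At 131 weeks Zbp1 thus lay below and Isg15 within the young range. The 131-week sample was the lowest of the 6 for 18 of these 24 and for 10 of the 24 interferon-gamma targets. The 136-week sample was the highest for 23 and 19 of them, while it was so for 5 of the 10 members.

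The machinery on which the members depend for loading onto membranes, together with their effector partners, gave a median near that of all genes. Of 21 such genes, among them the ATG5-ATG12-ATG16L1 conjugation system, the LC3 and GABARAP proteins, prenyl transferase subunits and caspases, 9 had a positive and 12 a negative estimate, with a median log2 fold change of -0.03. Only Sqstm1, an autophagy receptor named after its values were seen, had an unadjusted p below 0.05, at 562, 620 and 844 CPM in young and 915, 921 and 1074 CPM in aged ECs (log2 fold change 0.52 ± 0.21, edgeR adjusted p = 0.342). Pggt1b, Atg16l1 and Casp1 had the smallest p toward lower expression (0.296, 0.307 and 0.327, unadjusted), with log2 fold changes of -0.16, -0.21 and -0.20. Toward higher expression Pim1 and Gsdmd, likewise named after their values were seen, had smaller unadjusted p of 0.0549 and 0.160 with log2 fold changes of 0.89 and 0.30.

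Markers of other cells moved with part of this pattern. The summed level of 25 leukocyte markers was 86.9, 52.3 and 95 CPM in the young samples and 229, 50 and 657 CPM at 127, 131 and 136 weeks. All 25 had a positive estimate and 11 an unadjusted p below 0.05, with Nkg7, Coro1a and Ptprc at the smallest p and log2 fold changes of 4.59, 1.95 and 2.93. 0 passed adjustment in edgeR, and DESeq2 called 5 of them higher (Ptprc, Cd3e, Nkg7, Itgam and Coro1a). Ptprc, which encodes CD45, stood at 1.56, 1.17 and 1.70 CPM in young and at 7.57, 1.28 and 25.6 CPM in aged samples. Of the 25 markers, 1, 4 and 6 were at 0 counts in young samples 1, 2 and 3, and 1, 5 and 0 at 127, 131 and 136 weeks, with the T cell markers Cd3d and Cd3g at 0 in the 131-week sample. Thus the 127- and 136-week samples, where most members were high, were also those with more leukocyte RNA, and the part of it in the members' levels was not tested.

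The sorted cells carried endothelial markers in all 6 samples, with Pecam1 between 1366 and 1635 CPM. The sum of 15 endothelial markers was 24192 to 26828 CPM in young samples and 13621, 18912 and 12508 CPM at 127, 131 and 136 weeks. Of the 15, 11 had a negative and 4 a positive estimate, 6 had an unadjusted p below 0.05 toward lower and 0 toward higher expression, 0 passed adjustment in edgeR, and 5 had a DESeq2 adjusted p below 0.05 toward lower expression. Lyve1, a receptor of sinusoidal and lymphatic ECs, stood at 391, 537 and 671 CPM in young and at 661, 223 and 1506 CPM in aged samples, so it was lowest at 131 weeks. Oit3, Stab2 and Mrc1, expressed by sinusoidal ECs, had the smallest p, with log2 fold changes of -1.31, -1.70 and -1.33. At 127, 131 and 136 weeks Oit3 stood at 789, 1352 and 745 CPM, Stab2 at 504, 1760 and 542 CPM and Mrc1 at 535, 1219 and 383 CPM. All 3 genes were lower in every aged than in every young sample, and their part in the members' levels was not tested. Hepatocyte markers summed to at most 194 CPM, with Serpina1a, Fgb and Cps1 at the smallest p and log2 fold changes of -1.49, -1.23 and -3.33, and DESeq2 called these 3 lower. Cps1 stood at 9.16, 5.10 and 0.252 CPM in young samples 1, 2 and 3 and at 0.103, 0.739 and 0.609 CPM at 127, 131 and 136 weeks. The ages thus overlapped in Cps1, with young sample 3 below the 131- and 136-week samples. Stellate and mural markers summed to 432, 358 and 133 CPM in young samples and to 453, 227 and 711 CPM at 127, 131 and 136 weeks. Reln made up 351 CPM of the sum at 127 weeks and 496 CPM at 136 weeks. Without it the sums were 277, 177 and 62.9 CPM in young samples and 102, 118 and 216 CPM at 127, 131 and 136 weeks, and the 127-week sample was the lowest of the 6 for 6 of the 10 markers. Of these 10 markers 5 had a positive estimate, and DESeq2 called Lrat lower. The part of hepatocyte, stellate and mural RNA in the members' levels was not tested.

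**Figure D5:**
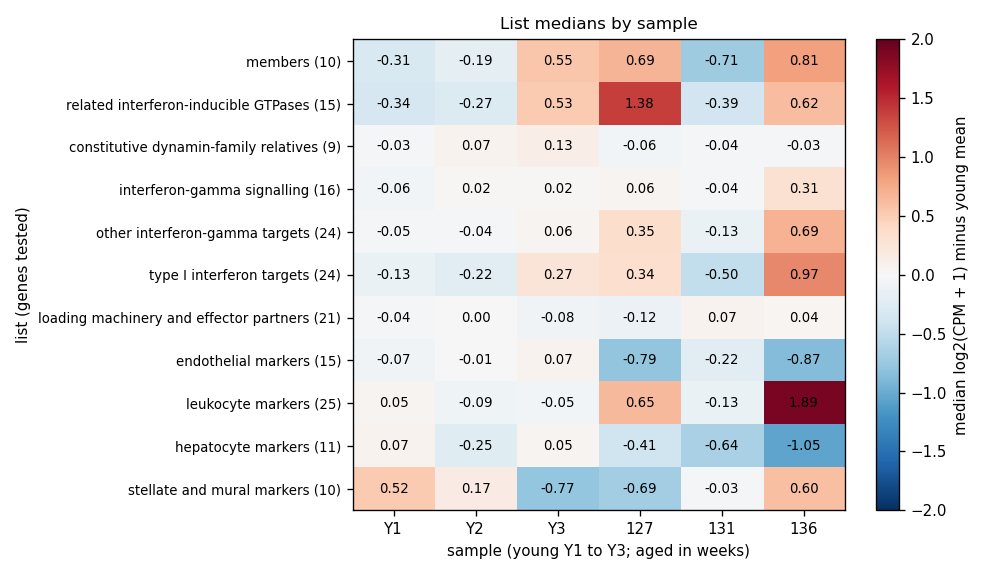
Median over each list of log2(CPM + 1) minus the young mean, by sample, with the number of genes tested in brackets. The members read 0.55 in Y3, 0.69 at 127, -0.71 at 131 and 0.81 at 136 weeks, while leukocyte markers read -0.05 in Y3, 0.65 at 127, -0.13 at 131 and 1.89 at 136 weeks and constitutive relatives stay between -0.06 and 0.13.

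The members lie in a few clusters of the genome. In the GENCODE annotation of mm9, the build of the deposited files, Gbp5, Gbp7, Gbp3 and Gbp2 lie in this order on chromosome 3 within 141 kb (142159864 to 142300972, plus strand). Gbp4 and Gbp6 lie on chromosome 5 (105544786 to 105722718, minus strand), with Gbp10 between them. Igtp and Irgm2 are neighbours on chromosome 11 (58013058 to 58036282, plus strand), while Irgm1 lies apart from them on the same chromosome (48675470 to 48685185, minus strand). Iigp1 lies on chromosome 18 (60535683 to 60552281, plus strand). In this order of positions, Gbp4 and Gbp6 both peaked at 127 weeks, and so did Igtp and Irgm2. On chromosome 3, Gbp2, Gbp3 and Gbp5 were highest at 136 weeks and Gbp7, between Gbp5 and Gbp3, was highest in young sample 3.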

How the data were processed

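RNA of CD31+CD45- liver ECs from 3 young and 3 aged mice was sequenced by the authors as single-end 75-base reads and mapped to mm9, and the submitters' processing notes name CASAVA 1.8.2, TopHat2 2.1.0 and Cuffnorm 2.2.1. The authors deposited raw read counts for 24421 gene symbols and, separately, FPKM values scaled between samples by Cuffnorm for 24346. The program and annotation used for counting, and any strand setting, are not given in the sources used here, so overlapping genes and near-identical copies are uncertain. Total counts were 23001556 to 31651817, and 3 counts, used as a floor for counting error only, equal at most 0.130 CPM.

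The filter kept 14612 genes that reached 0.5 CPM in 1 or more samples, and TMM factors were computed on them. Ages were compared, aged minus young, with the two-sided quasi-likelihood test of edgeR 4.0.16 (R 4.3.3) and Benjamini-Hochberg adjustment over all genes tested. Calls needed an adjusted p under 0.05 with a log2 fold change beyond 1. The SE was taken as the fitted log2 change over the root of F. Samples of 1 age were not copies of each other, but young samples 1 and 2 were the most alike. Chi-square per degree of freedom was 19.9 for that pair and 145 to 190 for the other pairs of 1 age. Shared sequence was counted over 75-base stretches of GENCODE transcripts of mm9.

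Alternatives were DESeq2 1.42.0, other scalings and filters, other settings of edgeR, limma 3.58.1 (voom, and log2 FPKM after adding 0.1 or 1), the library cluster as a term or within clusters, removal of Lars2 and Rn45s, removal of each mouse, and the 131-week mouse alone. Members and gene lists were chosen with earlier results of these data known. All members were named, and any tested gene of the related GTPase and interferon-gamma signalling lists could be named. Of each other list, the 3 genes with the smallest p in the direction of most of that list were named. The stellate and mural list, with 5 positive and 5 negative estimates, has no such direction, and Reln and Lrat were named from it. The 5 other genes with the profile most like the members' median were named too. Sqstm1, Dnm3, Pim1, Gsdmd, Reln, Lyve1, the sort genes and the markers called by DESeq2 were added to them after their values were seen, and 1 gene of the signalling list is not reported here. Promoters are 250 bases from RefSeq (GRCm38.p6).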

Additional observations from a re-analysis of the deposited data

How the results depend on the processing

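The median log2 fold change of the members (0.40) stayed positive under every alternative run except that of the 131-week mouse alone, where it was -0.81. It ran from 0.11 to 0.73 when 1 mouse was left out, and was 0.31 and 0.40 within the library clusters with few and many Lars2 and Rn45s counts. The number of members called at the adjusted threshold was 1 with DESeq2 (Irgm1) and 0 in the other fits, those without 1 mouse included (0 to 0). Over all genes the share called was 3.31% with DESeq2, 0.831% without the 131-week mouse, 0.103% with limma-voom, 0.0325% without a filter on low counts, 0.0137% with the cluster as a term, 0.0124% on log2 FPKM with 0.1 added and 0.0% in the rest. Members higher in aged ECs at an unadjusted p below 0.05 numbered 1 in the edgeR fit (9.03% of all genes tested), and 2 with DESeq2 (9.72%), without scaling factors (10.5%), with limma-voom (9.29%) and without a filter on low counts (7.71%). They numbered 1 to 5 when 1 mouse was left out (5.59% to 11.6%), with 5 without the 131-week mouse (11.6%) and 2 without young sample 3 (7.01%). Members lower at that p numbered 2 for the 131-week mouse alone (Gbp6 and Irgm2; 1.76% of all genes) and 0 otherwise, while 2.68% to 7.07% of all genes were lower in the other fits. Members whose ages did not overlap numbered 1 to 7 when 1 mouse was left out (12.3% to 18.5% of all genes), with 7 without the 131-week mouse (18.5%) and 2 without young sample 3 (17.0%).

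For the 131-week mouse alone the signs turned for Gbp2 (-0.40), Gbp3 (-1.02), Gbp4 (-1.12), Gbp5 (-0.61), Gbp6 (-1.20), Igtp (-0.69), Irgm2 (-0.96) and Iigp1 (-0.064). Gbp7 turned without factors (0.001), with the cluster as a term (0.066), with limma-voom (0.21), within the cluster with many ribosomal counts (0.31), without the 131-week mouse (0.25) and without young sample 3 (0.46). Gbp4 turned within that cluster (-0.13), without the 127-week mouse (-0.37) and without young sample 1 (-0.004), and Irgm2 within that cluster (-0.25), without the 127-week mouse (-0.19) and on log2 FPKM (-0.023 and -0.020 with 0.1 and 1 added). Gbp5 turned without the 136-week mouse (-0.076) and Gbp2 within the other cluster (-0.033). Leaving out 1 mouse gave log2 fold changes of 0.02 (without the 136-week mouse) to 0.57 (without the 131-week mouse) for Gbp2, 0.04 (136-week) to 0.95 (young sample 3) for Gbp3, -0.37 (127-week) to 0.54 (131-week) for Gbp4, -0.08 (136-week) to 0.60 (131-week) for Gbp5, 0.59 (127-week) to 1.40 (131-week) for Gbp6, -0.47 (136-week) to 0.46 (young sample 3) for Gbp7, 0.15 (127-week) to 0.88 (young sample 3) for Igtp, 0.71 (136-week) to 1.28 (young sample 3) for Irgm1, -0.19 (127-week) to 0.46 (131-week) for Irgm2 and 0.50 (136-week) to 1.17 (131-week) for Iigp1. The cause of these turns was not tested. No paired analysis was possible because the labels give the aged mice no replicate numbers. Every member had at least 352 counts in every sample, and each comparison rests on 3 mice an age.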

Other observations

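The genes whose profile lay closest to that of Irgm1 were looked up after its values were seen. Outside the members these were Rel (root mean square distance 0.07 on centred log2(CPM + 1) over the 6 samples), Adamts1 (0.10), Kdm6b (0.11), Cobll1 (0.12) and Nfkbiz (0.12). Rel encodes a subunit of NF-kB and Nfkbiz an atypical inhibitor protein of that family.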
